A study of Mus musculus with 15 samples.

Results

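Transcript levels were compared between 4T1 cells carrying either of 2 hairpins against the same gene, Tm4sf1. 4T1 is a mouse mammary carcinoma line. The lines were made with the lentiviral vector pLKO. The construct labelled shTM4SF1-1 is written hairpin 1 below, and the construct labelled shTM4SF1-5 is written hairpin 5. The arrays were chosen by these labels: 3 carried RNA of hairpin 1 cells and 3 of hairpin 5 cells, which makes 6 of the 15 arrays of the series. All genes detected by the filter below were compared. A further 3 arrays came from 4T1 cells with a scrambled hairpin (shscramble) in the same kind of vector and are given beside the hairpins as levels. The remaining 6 came from 4TO7 cells, a related line that carried retroviral pBabepuro with or without a TM4SF1 insert. These 6 entered only the normalization, the detection filter, the choice of the brightest probe of a gene and the estimate of the spread. All hairpin cells were stably transduced, so both groups and the scramble cells carry an integrated vector, and no array is labelled as uninfected cells. The labels call the arrays biological replicates without saying whether they came from separate cultures or transductions, so the p-values measure the spread between these arrays, which may be technical. The sources used here do not say whether each line is a clone or a pool.

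A short hairpin RNA is cut in the cell to a small RNA that guides the silencing complex to transcripts with a matching sequence. Each hairpin has its own guide strand and can also act on other transcripts that match its seed, and each stably transduced line has its own vector insertions and history in culture. Tm4sf1 encodes a surface protein of the L6 family, which spans the membrane several times and is related to the tetraspanins. Setting one hairpin against another that was built for the same transcript asks which differences from control cells the hairpins do not share.

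Tm4sf1 itself (probe ILMN_2462650) was not called different between the hairpins. On the scale of log2 normalized intensity, its level was 6.77, 6.96 and 7.09 on the hairpin 1 arrays, 7.07, 6.72 and 5.96 on the hairpin 5 arrays, and 8.17, 8.01 and 8.03 on the scramble arrays. The hairpin groups overlapped, both lay below every scramble array, and hairpin 5 replicate 3 was the lowest of all. The difference, hairpin 1 minus hairpin 5, was 0.36 (SE 0.194, 95% interval -0.04 to 0.76, limma adjusted p = 0.441, n = 3 against 3). It was 0.05 without hairpin 5 replicate 3 and 0.60 without hairpin 5 replicate 1, so a difference in the depth of knockdown was neither shown nor bounded closely.

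Mean array signal was 222 to 408.8 intensity units with hairpin 1 and 240.4 to 375.6 with hairpin 5 (exact permutation test of the group means, two-sided p = 0.9, where 3 against 3 allows no p under 0.1). Across genes, arrays correlated at r = 0.9893 to 0.993 within hairpin 1, 0.9866 to 0.9909 within hairpin 5 and 0.9851 to 0.991 between the hairpins. The epithelial keratin genes Krt8, Krt18 and Krt7 were detected on all 9 4T1 arrays. Cdh1 was detected on only 1, from hairpin 1 cells, and Krt19, Cldn7 and Esrp1 on none. Cdh1, Krt19, Cldn7 and Esrp1 were each read by 1 probe, so a lack of signal does not show a lack of transcript. Epcam had no probe on the array. Of the markers of other cell types on the array, 1 of 9 for leukocytes (Cd14), 1 of 10 for endothelium (Plvap) and 3 of 10 for fibroblasts (Pdgfra, Pdgfrb and Dcn) were detected on any 4T1 array, and Ptprc, Pecam1 and Col1a1 were on none.

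Of 8228 genes tested, 153 passed an adjusted p of 0.05 (limma, Benjamini-Hochberg), which is 1.86%. Of these, 103 were higher with hairpin 1 (1.25% of all genes) and 50 were higher with hairpin 5 (0.608%). Hairpin 1 was thus the higher side for 67.3% of calls. Counts and directions within the gene lists below are to be read beside these shares. An unadjusted p under 0.05 was found for 1099 genes, 13.4% of all. Most differences were small: 3 of the 153 reached 1 on the log2 scale, and the median SE of a difference was 0.13. The groups of 3 arrays did not overlap for 1404 genes, 17.1% of those tested. The count was 80 to 161 with any 1 of the 6 arrays left out, the lowest without hairpin 1 replicate 2 and the highest without hairpin 5 replicate 3. Leaving out hairpin 1 replicate 1 gave 100, hairpin 1 replicate 3 gave 90, hairpin 5 replicate 1 gave 92 and hairpin 5 replicate 2 gave 104. Of 54 called genes named by the rule given with the processing below, 25 passed in each of those 6 fits.

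**Figure D1:**
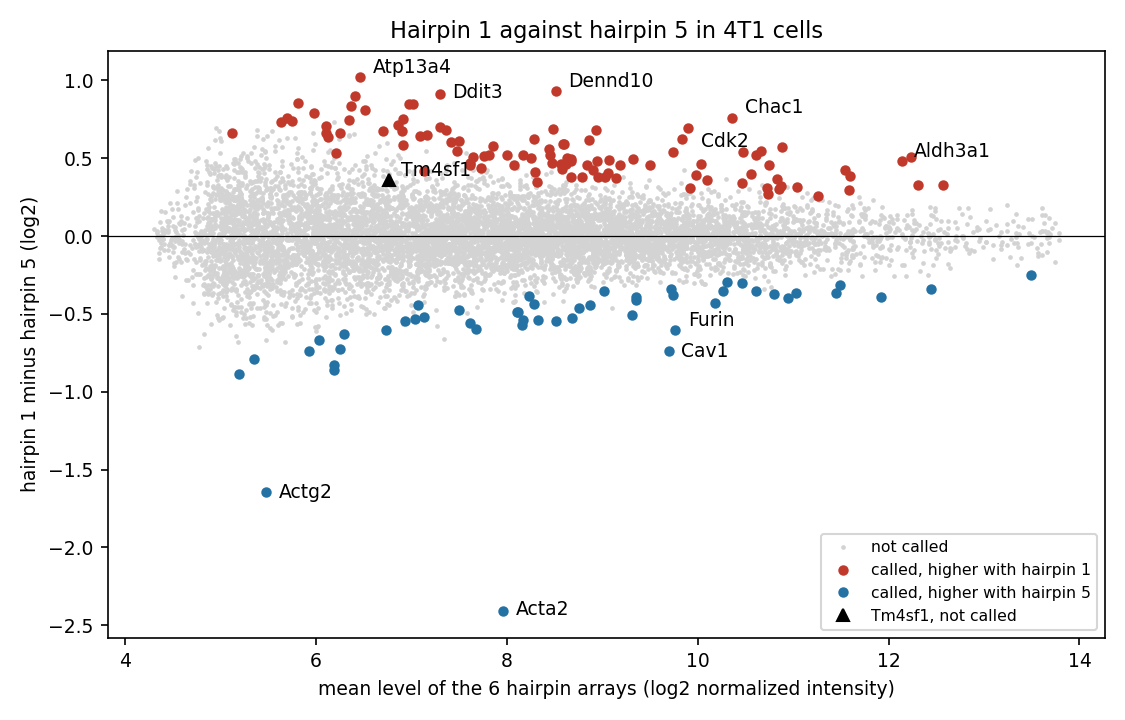
Difference between the hairpins (hairpin 1 minus hairpin 5, log2) against the mean level of the 6 hairpin arrays (log2 normalized intensity), 1 point per gene for 8228 genes. Red points are the 103 genes called higher with hairpin 1 and blue points the 50 called higher with hairpin 5; Acta2 at -2.41 and Actg2 at -1.64 stand apart (Actg2 was undetected with hairpin 1, so its point is a fitted value and only a bound is given in the text), and the triangle marks Tm4sf1 at 0.36, which was not called.

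The widest separation was in smooth muscle actin genes, which were higher with hairpin 5. Acta2 encodes smooth muscle alpha-actin, a filament protein of smooth muscle, myoepithelial cells and activated fibroblasts. Its level was 6.89, 6.44 and 6.94 with hairpin 1, 9.29, 9.09 and 9.11 with hairpin 5, and 6.27, 6.07 and 6.22 with scramble. All hairpin 5 arrays lay far above the other 6, and the hairpin 1 arrays lay a little above the scramble arrays. Acta2 was 5.31-fold higher with hairpin 5 than with hairpin 1 (log2 difference -2.41, SE 0.162, limma adjusted p = 2.54e-10). Its other probes, which were dimmer, differed in the same direction by -0.66, -0.81 and -1.28, so the size depends on the probe. Actg2, which encodes the smooth muscle gamma-actin of gut and other visceral muscle, read 4.68, 4.54 and 4.74 with hairpin 1, 6.31, 6.25 and 6.34 with hairpin 5, and 4.73, 4.51 and 4.81 with scramble. It was detected on all 3 hairpin 5 arrays and on none of the hairpin 1 or scramble arrays, so it was at least 2.13-fold higher with hairpin 5 than with hairpin 1 (limma adjusted p = 2.8e-06). The fold is taken against the lowest detected signal of each array. The actin transcripts are near-identical over their coding parts, and whether the probes of both genes share signal was not tested. In bulk RNA, fewer cells of a kind and less transcript per cell cannot be told apart.

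The calponin gene Cnn2, whose product binds actin filaments, was also higher with hairpin 5 (log2 difference -0.57, SE 0.118, limma adjusted p = 0.00746). It read 7.89, 7.78 and 7.94 with hairpin 1, 8.42, 8.59 and 8.31 with hairpin 5, and 8.18, 8.45 and 8.11 with scramble. The hairpin groups did not overlap, and the scramble arrays lay above hairpin 1. A dimmer second probe of Cnn2 gave -0.24 without passing. Leaving out replicate 2 of hairpin 1 ended the Cnn2 call (-0.53, adjusted p = 0.0525), and so did leaving out replicate 2 of hairpin 5 (-0.49, adjusted p = 0.0598). These 3 genes were the called members of a list of 10 tested smooth muscle and contractile genes, 30% of the list beside 1.86% of all genes. The median difference of the list was -0.09, beside -9.76e-05 over all genes, and 8 of 10 genes lay below 0, beside 50% of all genes. The tropomyosin, alpha-actinin and vinculin genes Tpm1 (-0.08), Actn1 (-0.01) and Vcl (0.11) were not called. Nor was the member that lay farthest toward hairpin 1, at 0.42. An unadjusted p under 0.05 was found for 4 of the 10 genes, beside 13.4% of all genes. Of the 11 smooth muscle and myoepithelial markers on the array, 2 were detected, Acta2 and Actg2. The summed level of all 11, detected or not, was 125.8 to 174.7 with hairpin 1, 648.4 to 721.3 with hairpin 5 and 105.5 to 126.9 with scramble. This sum includes Acta2 and Actg2, so it restates their difference and gives no separate view of the other markers. Myh11, Cnn1, Lmod1, Des, Synpo2, Tagln, Krt14, Krt5 and Trp63 were detected on none of the 9 4T1 arrays.

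Promoter sequence of Acta2 and Cnn2 is shown because these genes differed together and because textbook regulators of smooth muscle actin, serum response factor and the TEAD factors, read short motifs near the start site. The windows are from RefSeq on GRCm38.p6, 250 bases before to 50 after the annotated start, 5′ to 3′ on the gene's strand. Acta2 lies at chr19:34255324-34255623 on the minus strand. Its capitals mark CATTCC, the core of the TEAD motif, which is read on the opposite strand. The leftmost base of this match on the shown strand is at -146. Cnn2 lies at chr10:79988350-79988649 on the plus strand, and its capitals mark a CArG box, the motif of serum response factor, at -56.
Acta2: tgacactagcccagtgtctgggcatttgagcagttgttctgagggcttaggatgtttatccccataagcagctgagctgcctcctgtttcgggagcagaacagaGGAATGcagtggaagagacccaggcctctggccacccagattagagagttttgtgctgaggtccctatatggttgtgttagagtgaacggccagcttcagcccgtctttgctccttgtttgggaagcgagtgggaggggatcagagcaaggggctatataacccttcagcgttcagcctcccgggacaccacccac
Cnn2: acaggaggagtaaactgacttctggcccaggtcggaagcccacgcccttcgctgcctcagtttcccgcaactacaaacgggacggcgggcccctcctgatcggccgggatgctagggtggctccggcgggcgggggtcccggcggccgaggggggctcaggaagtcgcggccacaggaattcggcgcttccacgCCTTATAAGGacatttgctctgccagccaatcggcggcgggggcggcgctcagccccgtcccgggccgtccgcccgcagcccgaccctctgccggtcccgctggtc
Both motifs were searched on both strands. A CArG box was in 1.63% of 32851 promoter windows and CATTCC in 14.7%. Only exact matches were counted and marked. Acta2 held no exact CArG box within this window, but its stretches ccctatatgg and ccttgtttgg resemble the motif and stay in lower case. The lack of a marked box in Acta2 therefore does not set it apart from Cnn2. Cav1, which is described next, held no exact match to either motif in either of its windows. A match is a description of letters and not of binding.

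Of the other actin-linked, matrix and membrane genes, Cav1 was among the most firmly separated. It encodes caveolin, the coat protein of caveolae. Its level was 9.34, 9.33 and 9.31 with hairpin 1, 10.29, 10.03 and 9.86 with hairpin 5, and 9.31, 9.32 and 9.22 with scramble. The hairpin 1 arrays sat at the scramble level and every hairpin 5 array lay above both. Cav1 was 1.66-fold higher with hairpin 5 (log2 difference -0.74, SE 0.0943, limma adjusted p = 3.65e-05). Dcn, which encodes the proteoglycan decorin, read 5.74, 6.13 and 5.79 with hairpin 1, 6.66, 6.62 and 6.56 with hairpin 5, and 5.84, 5.71 and 5.42 with scramble (difference -0.72, SE 0.147, adjusted p = 0.00673). It was dim with no overlap between the hairpins, and its second probe gave -0.37 without passing. Dcn is also a fibroblast marker, and the summed fibroblast markers lay at 924.6 to 1005 with hairpin 1 and 834.3 to 970.5 with hairpin 5, with Col1a1, Col1a2 and Col3a1 undetected.

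Among 15 tested targets of YAP/TAZ and serum response factor, 1 was called in each direction, together 13.3% of the list beside 1.86% of all genes. Ccn2, which encodes connective tissue growth factor, read 10.27, 10.07 and 10.14 with hairpin 1, 10.41, 10.43 and 10.53 with hairpin 5, and 9.82, 9.74 and 9.75 with scramble. Both hairpins lay above scramble, hairpin 5 more so (difference between the hairpins -0.30, SE 0.075, limma adjusted p = 0.0343). Nt5e, which encodes the surface enzyme CD73, was higher with hairpin 1 (0.36, SE 0.0874, adjusted p = 0.0274) and was highest with scramble, with means of 10.28, 9.92 and 10.61 in the order hairpin 1, hairpin 5, scramble. Neither call was firm. Ccn2 passed only without hairpin 1 replicate 1, at -0.25 to -0.32 in the other 5 fits that left out an array, and Nt5e missed the threshold in 4 such fits (replicate 1 or 2 of either hairpin left out), at 0.31 to 0.37. The list median was -0.12.

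**Figure D2:**
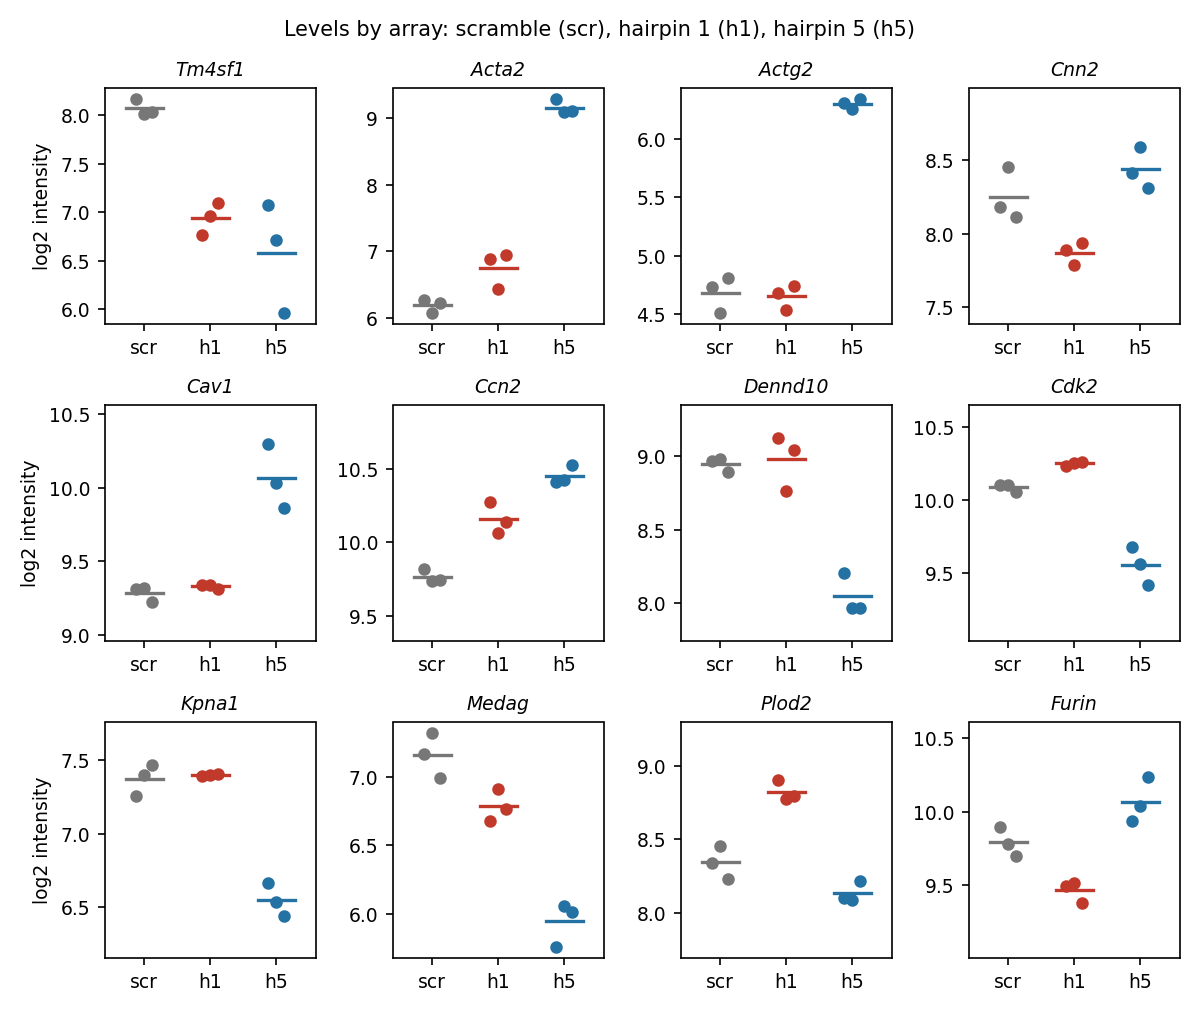
Level (log2 normalized intensity) of 12 genes on each scramble (scr, grey), hairpin 1 (h1, red) and hairpin 5 (h5, blue) array, with a line at the mean of 3 arrays; each panel has its own axis, which does not start at 0. Tm4sf1 overlapped between the hairpins, while Acta2, Actg2 and Cav1 were high with hairpin 5 alone, and Dennd10, Kpna1 and Cdk2 were low with hairpin 5 alone.

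Matrix and secretory enzymes were called in both directions. Plod2, the lysyl hydroxylase that prepares collagen for cross-linking, read 8.90, 8.77 and 8.80 with hairpin 1, 8.10, 8.09 and 8.22 with hairpin 5, and 8.34, 8.45 and 8.23 with scramble. The scramble arrays fell between the hairpins, all above hairpin 5 (difference 0.69, SE 0.0894, limma adjusted p = 3.65e-05). Furin, the convertase that cleaves proproteins on their way to the surface, had the opposite pattern, at 9.49, 9.52 and 9.38 with hairpin 1, 9.94, 10.04 and 10.23 with hairpin 5, and 9.90, 9.78 and 9.70 with scramble (-0.61, SE 0.0865, adjusted p = 1.23e-04). No array of one hairpin overlapped the other for either gene. Col18a1, which encodes a basement membrane collagen, differed by -0.36 at its brightest probe (SE 0.0686, adjusted p = 0.00361), but its other probes gave 0.24 and 0.16, and the mean over its probes gave 0.01, so its direction is unsettled.

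Of 26 tested extracellular proteases and inhibitors, 1 was called in each direction, together 7.69% of the list beside 1.86% of all genes. Mmp9, the gelatinase gene, read 9.13, 9.15 and 9.08 with hairpin 1, 8.71, 8.72 and 8.64 with hairpin 5, and 10.15, 10.09 and 10.17 with scramble. Both hairpin groups lay below scramble, and hairpin 5 lay lower (difference 0.43, SE 0.0848, limma adjusted p = 0.00582). Plau, which encodes urokinase, was higher with hairpin 5 by -0.40 (SE 0.0812, adjusted p = 0.00701), with means of 10.75 with hairpin 1, 11.14 with hairpin 5 and 11.22 with scramble, and it missed the threshold without hairpin 1 replicate 2 (-0.36, adjusted p = 0.0526).

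Genes of the ATF4 and CHOP stress response were higher with hairpin 1 wherever they were called. In this pathway kinases that sense unfolded protein or missing amino acids slow translation, which lets the factor ATF4 accumulate, and ATF4 induces CHOP, amino acid transporters and biosynthetic enzymes. Of 23 tested genes of this list, 4 were called, all higher with hairpin 1, which is 17.4% of the list beside 1.86% of all genes, and 9 had an unadjusted p under 0.05 (13.4% of all genes did). The median difference was 0.31, with 21 of 23 above 0. The list was chosen with earlier results of these data known, so its count is a description.

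Ddit3, which encodes CHOP, read 7.76, 7.82 and 7.68 with hairpin 1, 6.58, 6.80 and 7.14 with hairpin 5, and 6.76, 6.64 and 6.63 with scramble. The hairpin 1 arrays stood above all others, and hairpin 5 replicate 3 was nearest to them. Ddit3 was 1.89-fold higher with hairpin 1 than with hairpin 5 (log2 difference 0.92, SE 0.136, limma adjusted p = 2e-04), and its second probe gave 0.86. Chac1, whose product degrades glutathione and which is induced by ATF4 and CHOP, read 10.75, 10.77 and 10.71 with hairpin 1, 9.91, 10.04 and 9.99 with hairpin 5, and 9.64, 9.67 and 9.43 with scramble. Its replicates were tight, and the order was hairpin 1, hairpin 5, scramble without overlap (difference between the hairpins 0.76, SE 0.0829, adjusted p = 3.15e-06).

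Slc7a11 encodes the cystine carrier of the glutamate exchanger, which feeds glutathione synthesis. It read 9.39, 9.14 and 9.28 with hairpin 1, 8.49, 8.65 and 8.63 with hairpin 5, and 8.49, 8.52 and 8.33 with scramble. The hairpin 1 arrays alone lay above the range of the other 6 (difference 0.68, SE 0.112, limma adjusted p = 7.43e-04). Asns, the asparagine synthetase gene, read 10.92, 10.83 and 10.90 with hairpin 1, 10.64, 10.57 and 10.50 with hairpin 5, and 10.41, 10.33 and 10.40 with scramble (difference 0.31, SE 0.0674, adjusted p = 0.0115). Its groups did not overlap, but it missed the threshold without hairpin 1 replicate 1 (0.29), hairpin 1 replicate 3 (0.30) or hairpin 5 replicate 3 (0.27), with adjusted p of 0.0629, 0.0564 and 0.0514. Its other probes gave 0.43 and 0.40. Atf4 itself (0.36, adjusted p = 0.209) and Trib3 (0.32, adjusted p = 0.372) were above 0 without being called.

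Beside these, 17 genes of endoplasmic reticulum chaperones and XBP1 targets were tested, and 2 were called, both higher with hairpin 1. That is 11.8% of the list beside 1.86% of all genes. The list median was 0.14, with 14 genes above 0 and 3 below, where 50% of all genes lay below 0. The member with the widest difference lay toward hairpin 5, at -0.56, and was not called. Herpud1, a component of the machinery that disposes of misfolded reticulum proteins, read 9.78, 9.71 and 9.68 with hairpin 1, 9.25, 9.24 and 9.31 with hairpin 5, and 9.27, 9.44 and 9.14 with scramble. The hairpin 1 arrays lay above the other 6 (difference 0.46, SE 0.0787, limma adjusted p = 0.0014), and a second probe gave 0.67. Xbp1, a transcription factor of the unfolded protein response, had another pattern: it read 11.07, 11.12 and 10.74 with hairpin 1, 10.46, 10.49 and 10.61 with hairpin 5, and 11.05, 11.13 and 11.14 with scramble. Here hairpin 5 was low and most hairpin 1 arrays sat at the scramble level (difference 0.46, SE 0.089, adjusted p = 0.00502), and the call was lost without hairpin 1 replicate 2 (0.38, adjusted p = 0.0526). The chaperone gene Hspa5 was not called (0.35, adjusted p = 0.545).

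Promoters of 3 of these stress genes are shown because they moved together and hold TGATGNAA, the core letters of the composite element that ATF4 and C/EBP factors bind. The windows are again from RefSeq on GRCm38.p6, with the same bounds and orientation. Chac1 lies at chr2:119350992-119351291 on the plus strand, Slc7a11 at chr3:50443564-50443863 on the minus strand and Herpud1 at chr8:94386179-94386478 on the plus strand. Capitals mark each match, which reads TGATGNAA on the shown strand or, in reverse complement, on the other.
Chac1: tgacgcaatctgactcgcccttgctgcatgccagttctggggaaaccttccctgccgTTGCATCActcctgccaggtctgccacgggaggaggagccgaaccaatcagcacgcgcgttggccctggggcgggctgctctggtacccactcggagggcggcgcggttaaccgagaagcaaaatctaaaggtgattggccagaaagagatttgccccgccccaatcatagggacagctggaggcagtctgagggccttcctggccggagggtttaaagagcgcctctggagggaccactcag
Slc7a11: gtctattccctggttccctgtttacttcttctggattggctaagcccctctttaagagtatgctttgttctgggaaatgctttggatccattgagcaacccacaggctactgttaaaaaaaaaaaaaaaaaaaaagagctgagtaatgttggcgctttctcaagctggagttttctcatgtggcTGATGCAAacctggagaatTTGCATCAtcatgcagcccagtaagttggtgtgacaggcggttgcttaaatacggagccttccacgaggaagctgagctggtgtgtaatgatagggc
Herpud1: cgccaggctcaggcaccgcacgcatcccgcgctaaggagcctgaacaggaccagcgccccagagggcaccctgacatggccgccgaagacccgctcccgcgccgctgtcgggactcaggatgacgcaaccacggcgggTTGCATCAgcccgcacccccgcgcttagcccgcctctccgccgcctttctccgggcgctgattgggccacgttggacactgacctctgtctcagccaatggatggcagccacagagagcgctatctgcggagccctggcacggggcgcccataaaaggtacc
Counted from the left of the shown strand, the match began at -193 in Chac1 and at -112 in Herpud1, and Slc7a11 held 2 matches, one on each strand. Asns held it at -23, and Ddit3, Mthfd2 and Xbp1 held none in these windows, so 4 of 7 called stress and folate genes with a promoter in the table had it. Of all 32851 windows searched, 3.97% held it on either strand. This is a description of letters, and no binding was measured.

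Folate and serine metabolism, which ATF4 also feeds, had 2 called genes of 10 tested, both mitochondrial folate enzymes and both higher with hairpin 1. That is 20% of the list beside 1.86% of all genes. Aldh1l2, which oxidises formyl-tetrahydrofolate, read 7.29, 7.60 and 7.44 with hairpin 1, 6.47, 6.58 and 6.73 with hairpin 5, and 6.31, 6.53 and 6.46 with scramble (difference 0.85, SE 0.121, limma adjusted p = 1.23e-04). Mthfd2, the methylene-tetrahydrofolate dehydrogenase gene, read 7.68, 7.90 and 7.83 with hairpin 1, 7.11, 7.23 and 7.22 with hairpin 5, and 7.09, 7.03 and 6.75 with scramble (0.61, SE 0.122, adjusted p = 0.00584). For both genes the hairpin 1 arrays stood apart from the other 6. The serine synthesis genes Phgdh (0.23) and Psat1 (0.19) were not called.

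**Figure D3:**
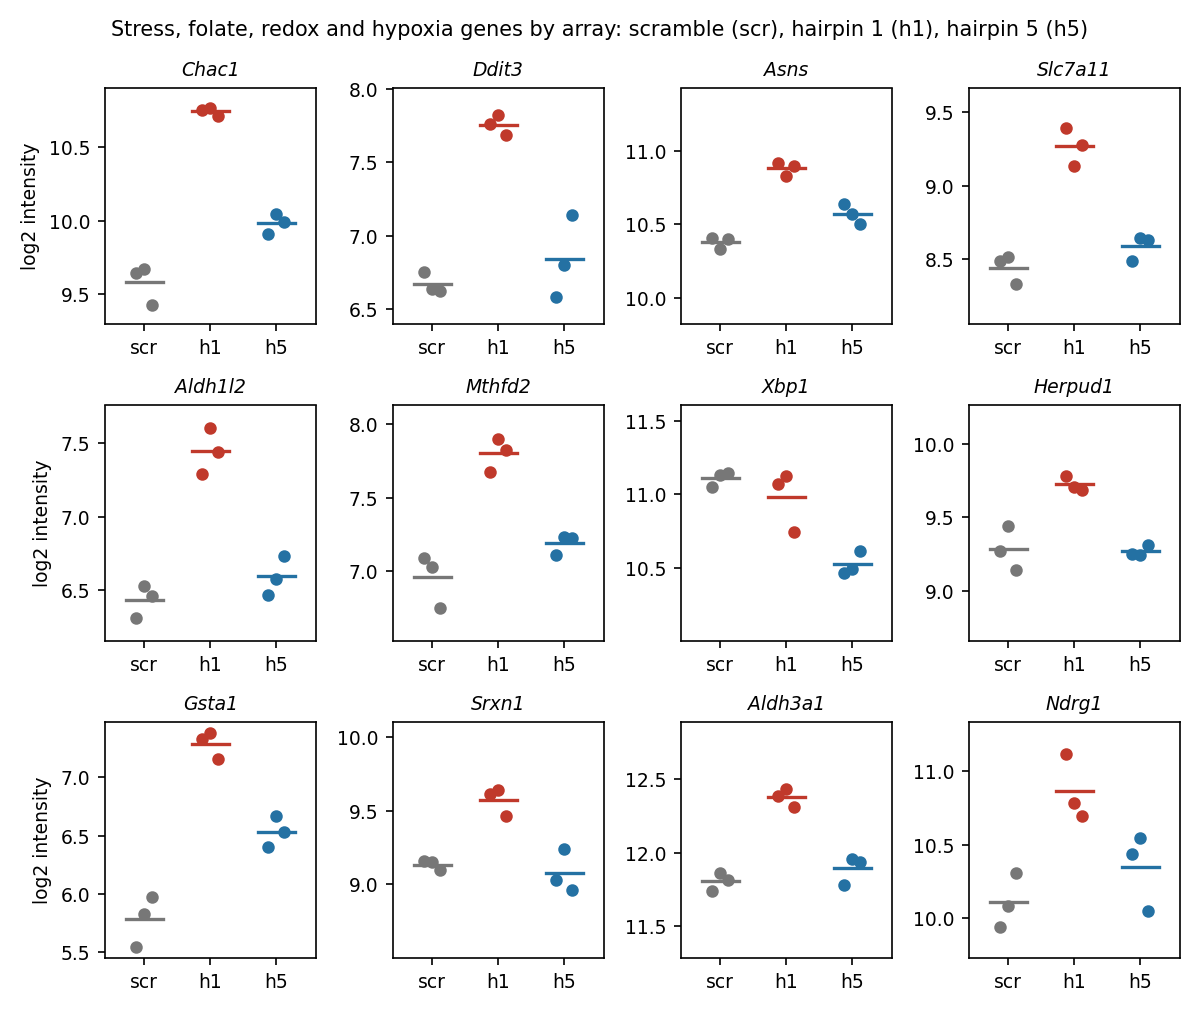
Level (log2 normalized intensity) of 12 stress, folate, redox and hypoxia genes on each scramble (scr, grey), hairpin 1 (h1, red) and hairpin 5 (h5, blue) array, with a line at the mean of 3 arrays; each panel has its own axis, which does not start at 0. For Ddit3, Slc7a11, Aldh1l2 and Herpud1 the hairpin 1 arrays lay above the other 6, while for Xbp1 the hairpin 5 arrays were the lowest.

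Of 27 tested NRF2 targets and glutathione enzymes, 3 were called and all were higher with hairpin 1, Slc7a11 among them. That is 11.1% of the list beside 1.86% of all genes. NRF2 is the factor that induces antioxidant enzymes. Srxn1, which repairs oxidised peroxiredoxin, read 9.62, 9.64 and 9.47 with hairpin 1, 9.03, 9.24 and 8.96 with hairpin 5, and 9.16, 9.15 and 9.10 with scramble (difference 0.50, SE 0.0984, limma adjusted p = 0.00564). Its hairpin 1 arrays lay above the rest, and its other probes gave 0.16 and 0.27 without passing. Gsta1, a glutathione transferase gene, averaged 7.29 with hairpin 1, 6.53 with hairpin 5 and 5.78 with scramble (difference between the hairpins 0.75, SE 0.167, adjusted p = 0.0127). It missed the threshold without hairpin 1 replicate 1 (0.73), hairpin 1 replicate 2 (0.71) or hairpin 5 replicate 1 (0.69), and near-identical transferase genes could share its probe. The list median was 0.04. Of 7 aldehyde dehydrogenase and retinoid genes, Aldh3a1 alone was called, which is 14.3% of the list. It read 12.39, 12.43 and 12.31 with hairpin 1, 11.78, 11.96 and 11.94 with hairpin 5, and 11.74, 11.86 and 11.81 with scramble. This bright gene, whose enzyme clears aldehydes, was high with hairpin 1 alone (difference 0.48, SE 0.0717, adjusted p = 1.98e-04).

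In the hypoxia and glycolysis list 4 of 27 genes were called, 14.8% of the list beside 1.86% of all genes, all higher with hairpin 1, and none of these calls held in every fit that left out an array. Ndrg1, a stress-induced gene, read 11.12, 10.79 and 10.69 with hairpin 1, 10.44, 10.55 and 10.05 with hairpin 5, and 9.94, 10.09 and 10.31 with scramble (difference 0.52, SE 0.115, limma adjusted p = 0.013). Its hairpin groups did not overlap, although the call was lost without hairpin 1 replicate 1 (0.39) or hairpin 5 replicate 3 (0.37). The prolyl hydroxylase gene Egln3 (0.36, adjusted p = 0.0122), the mitophagy receptor gene Bnip3l (0.32, adjusted p = 0.0178) and the glucose carrier gene Slc2a1 (0.26, adjusted p = 0.0414) followed. A dimmer second probe of Egln3 gave -0.03 without passing. Egln3 missed the threshold without hairpin 1 replicate 1, hairpin 1 replicate 2 or hairpin 5 replicate 3, at 0.30 to 0.35. Bnip3l missed it without hairpin 1 replicate 2 (0.27) or hairpin 5 replicate 3 (0.28), and Slc2a1 passed only without hairpin 5 replicate 3. The glycolytic genes Ldha (0.09), Gapdh (0.03) and Pkm (-0.01) were not called. Nor was the member with the widest difference, at 0.66. The list median was 0.12, and 21 of 27 genes lay above 0 and 6 below, where 50% of all genes lay below 0. An unadjusted p under 0.05 was found for 8, beside 13.4% of all genes.

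Secreted signals differed gene by gene. Of 28 tested chemokine, cytokine and NF-kB target genes, 2 were called higher with hairpin 1 and 1 higher with hairpin 5. Together they were 10.7% of the list beside 1.86% of all genes. Cxcl1, a neutrophil chemokine gene, read 11.04, 11.27 and 11.20 with hairpin 1, 10.63, 10.61 and 10.56 with hairpin 5, and 10.83, 10.73 and 11.04 with scramble. Scramble lay between the hairpins, touching the range of hairpin 1 (difference 0.57, SE 0.0843, limma adjusted p = 1.97e-04). Il11, a cytokine gene, was detected on 3 hairpin 1 arrays and 1 hairpin 5 array, so the size of its difference is uncertain (0.73, SE 0.153, adjusted p = 0.00761), with adjusted p of 0.0669 without hairpin 1 replicate 2 and 0.0526 without hairpin 5 replicate 1. Vcam1, an adhesion receptor gene, read 9.17, 9.12 and 9.16 with hairpin 1, 9.64, 9.55 and 9.48 with hairpin 5, and 9.38, 9.26 and 9.19 with scramble (-0.41, SE 0.0785, adjusted p = 0.00449). Its hairpin groups did not overlap and scramble lay between them. Of the 9 leukocyte markers on the array, the summed level was 585 to 632.7 with hairpin 1 and 452.8 to 497 with hairpin 5. With scramble it was 499.4 to 523.4. The only one detected, Cd14, differed by 0.38 (SE 0.0893, limma adjusted p = 0.0189), and the defining marker Ptprc was detected on none of the 9 4T1 arrays. The sum includes Cd14 and undetected markers, so it gives no separate view of leukocytes.

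Of 23 tested genes of the interferon response list, 1 was called, higher with hairpin 5, which is 4.35% of the list beside 1.86% of all genes. The median difference was -0.28 beside -9.76e-05 over all genes. A difference below 0 was found for 19 of 23 genes, beside 50% of all genes, and an unadjusted p under 0.05 for 7, beside 13.4% of all genes. Gbp3, a guanylate-binding protein gene of the interferon response, was the called member: it read 6.18, 5.41 and 5.49 with hairpin 1, 6.48, 6.34 and 6.27 with hairpin 5, and 5.97, 6.37 and 6.10 with scramble. Hairpin 1 replicate 1 came close to the hairpin 5 range, and scramble overlapped that range (difference -0.67, SE 0.169, limma adjusted p = 0.0343). Gbp3 missed the threshold without hairpin 1 replicate 2 (-0.53), hairpin 1 replicate 3 (-0.57), hairpin 5 replicate 1 (-0.61) or hairpin 5 replicate 2 (-0.68). Ly6e, a surface protein gene known to respond to interferon and not a member of that list, was detected on all hairpin 5 arrays and no hairpin 1 array, and was at least 1.45-fold higher with hairpin 5 (adjusted p = 0.0183). The Ly6e call was lost without hairpin 1 replicate 2, hairpin 1 replicate 3, hairpin 5 replicate 1 or hairpin 5 replicate 2, with adjusted p of 0.0558 to 0.0764. Of 14 genes of MHC class I and antigen processing, limma called 0, with 2 at an unadjusted p under 0.05 and Tapbp the farthest apart (-0.36, adjusted p = 0.361).

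**Figure D4:**
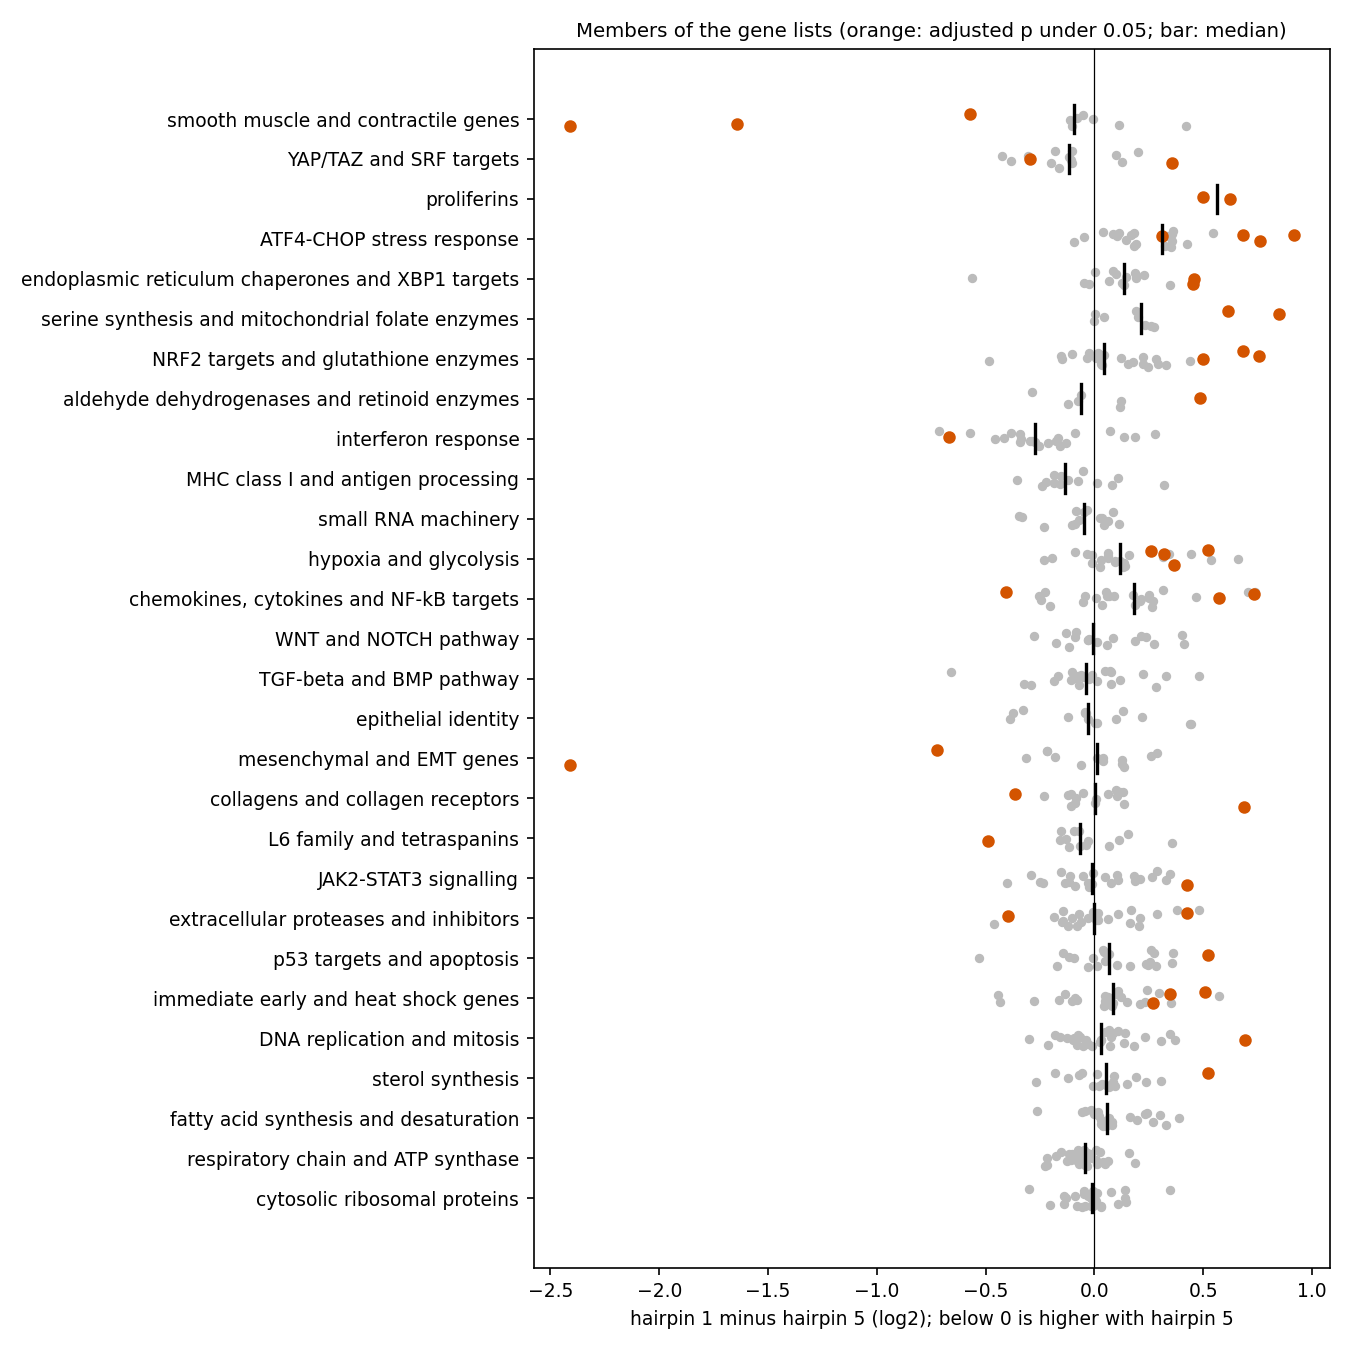
Difference between the hairpins (hairpin 1 minus hairpin 5, log2) of every tested member of 28 gene lists, 1 point per gene, with called genes in orange and a bar at the list median. Acta2 and Actg2 lie far to the left. The medians of the proliferin list (2 genes), the stress list and the interferon list lie at 0.56, 0.31 and -0.28, and the other medians lie nearer 0.

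Cell cycle and transport genes contributed single genes whose low level was with hairpin 5. Cdk2, the kinase gene of the G1-S transition, read 10.23, 10.25 and 10.26 with hairpin 1, 9.68, 9.56 and 9.42 with hairpin 5, and 10.10, 10.10 and 10.05 with scramble. All hairpin 5 arrays lay below the other 6, and 3 further probes gave 0.59, 0.74 and 0.54 (difference 0.69, SE 0.0788, limma adjusted p = 4.55e-06). Of 31 replication and mitosis genes Cdk2 was the only one called (3.23% of the list beside 1.86% of all genes), and the list median was 0.03. Kpna1, a nuclear import receptor gene, read 7.39, 7.40 and 7.41 with hairpin 1, 6.66, 6.54 and 6.44 with hairpin 5, and 7.25, 7.40 and 7.47 with scramble (0.85, SE 0.12, adjusted p = 1.11e-04). Hairpin 1 and scramble overlapped there, well above hairpin 5. Dennd10, a gene of a DENN-domain protein, read 9.13, 8.77 and 9.04 with hairpin 1, 8.21, 7.97 and 7.96 with hairpin 5, and 8.97, 8.98 and 8.89 with scramble (0.93, SE 0.103, adjusted p = 3.15e-06). It too was low with hairpin 5 alone, and its other probes gave 0.49 and 0.90. Medag, a gene linked to adipocyte differentiation, averaged 6.78 with hairpin 1, 5.95 with hairpin 5 and 7.16 with scramble (0.84, SE 0.109, adjusted p = 3.65e-05), and its second probe gave 1.10.

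Other called genes were higher with hairpin 1. Atp13a4, a P-type ATPase gene, read 6.96, 6.81 and 7.15 with hairpin 1, 6.04, 5.98 and 5.84 with hairpin 5, and 5.80, 5.67 and 5.64 with scramble, which made it the largest called difference in that direction (1.02, SE 0.17, limma adjusted p = 8.51e-04). All hairpin 1 arrays lay above the other 6. Espn, an actin-bundling protein gene, averaged 6.72 with hairpin 1, 5.97 with hairpin 5 and 6.40 with scramble (0.74, SE 0.102, adjusted p = 8.4e-05), while a dimmer probe gave -0.09. Ier3, an immediate early gene, read 12.26, 12.61 and 12.61 with hairpin 1, 12.04, 11.86 and 12.05 with hairpin 5, and 11.91, 11.82 and 11.81 with scramble (0.51, SE 0.0957, adjusted p = 0.00361). Its hairpin groups did not overlap, and it was 1 of 3 genes called among 28 immediate early and heat shock genes, all higher with hairpin 1. These 3 were 10.7% of the list beside 1.86% of all genes. Fosl1 (0.35, adjusted p = 0.0449) and Hsph1 (0.27, adjusted p = 0.0414) were the others: Fosl1 passed only without hairpin 5 replicate 3 and Hsph1 in no fit that left out an array.

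The proliferins are prolactin-family hormones. Of 6 proliferin genes on the array 2 passed the detection filter, Prl2c4 and Prl2c3, and both were called higher with hairpin 1 than with hairpin 5. Prl2c4 read 8.57, 8.70 and 8.51 with hairpin 1, 7.88, 8.00 and 8.03 with hairpin 5, and 6.50, 6.38 and 6.34 with scramble. Prl2c3 read 9.04, 9.01 and 8.71 with hairpin 1, 8.40, 8.38 and 8.48 with hairpin 5, and 6.94, 6.68 and 6.47 with scramble. For both genes the 3 groups were separate and in the same order. The differences between the hairpins were 0.62 for Prl2c4 (SE 0.127, limma adjusted p = 0.00673) and 0.50 for Prl2c3 (SE 0.126, adjusted p = 0.0348). Prl2c4 missed the threshold without hairpin 1 replicate 2 (0.57), and Prl2c3 missed it in 4 of the 6 fits (replicate 1 or 2 of either hairpin left out), at 0.44 to 0.49. The proliferin genes are near-identical, so their probes may read each other's transcripts.

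Among the remaining lists, single genes were called. The count was 1 of 19 sterol synthesis genes (5.26%), 1 of 23 p53 and apoptosis genes (4.35%) and 1 of 14 L6 family and tetraspanin genes (7.14%). These shares are to be read beside 1.86% of all genes. The sterol synthesis gene Msmo1 (0.52, SE 0.113, limma adjusted p = 0.0109), the p53 target Trp53inp1 (0.52, SE 0.111, adjusted p = 0.00969) and, with the opposite sign, the tetraspanin gene Tspan17 (-0.49, SE 0.123, adjusted p = 0.0336) each passed. Msmo1 was lost without hairpin 1 replicate 2 (0.44), hairpin 5 replicate 2 (0.49) or hairpin 5 replicate 3 (0.43), and Trp53inp1 without hairpin 1 replicate 1 or hairpin 5 replicate 2 (both 0.47). Tspan17 passed only without hairpin 1 replicate 3, was -0.35 without hairpin 1 replicate 2, and its second probe gave 0.22. In the JAK2-STAT3 list Mmp9 was the 1 gene of 26 called (3.85%), and in the mesenchymal list 2 of 15 (13.3%), Acta2 and Dcn. Both shares stand beside 1.86% of all genes.

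Several lists had no called gene, and their counts at an unadjusted p under 0.05 are to be read beside 13.4% of all genes. Limma called 0 of 24 TGF-beta and BMP genes, with 5 at an unadjusted p under 0.05, and the co-receptor gene Eng was the farthest apart. Eng read 7.18, 6.82 and 7.04 with hairpin 1, 7.44, 7.74 and 7.85 with hairpin 5, and 7.75, 7.55 and 7.71 with scramble. Its hairpin groups did not overlap, and scramble sat within the hairpin 5 range (difference -0.66, SE 0.187, adjusted p = 0.0695). Eng passed in 4 of the 24 alternatives: without background correction (-0.43, adjusted p = 0.00582), with an offset of 50 (-0.55, adjusted p = 0.0103), with only the 6 hairpin arrays (adjusted p = 0.0342) and with only the 9 4T1 arrays (adjusted p = 0.0149). The count was likewise 0 of 18 WNT and NOTCH genes, with 3 at an unadjusted p under 0.05 and Wnt10a the farthest apart (0.41). Of 15 epithelial genes limma called 0, with 5 at that level and Cldn4 the farthest apart (0.45). Small RNA machinery had 0 of 15 called with 2 at that level, which covers genes such as Ago2 (-0.35, adjusted p = 0.314) through which hairpins act. Fatty acid synthesis had 0 of 22 with 6 at that level, the respiratory chain 0 of 32 with 3, and cytosolic ribosomal proteins 0 of 28 with 2. The farthest apart were Lpin1 (0.39) in the fatty acid list and Sdhc (-0.23) in the respiratory list. The probe of the ribosomal gene Rpsa was detected on 1 of the 9 4T1 arrays and is given no difference. The medians of the last 2 lists were -0.04 and -0.01.

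The scramble arrays, which the contrast did not use, place the called genes relative to control cells. The scramble mean lay between the hairpin means for 91 of the 153 called genes (59.5%, beside 29.3% of all genes), above both for 27 and below both for 35. A called gene has a wider gap between its hairpins than most genes, which leaves more room between them. Of the 103 genes higher with hairpin 1, the scramble mean was nearer to hairpin 1 for 48 and nearer to hairpin 5 for 55, close to the shares over all genes, which were 46.5% and 53.5%. Of the 50 higher with hairpin 5, it was nearer to hairpin 1 for 16 and nearer to hairpin 5 for 34. These positions are descriptions of means and were not tested.

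Second probes gave a further view of the called genes. There were 75 other detected probes of called genes, of which 63 differed in the same direction as the brightest probe and 13 of those passed an adjusted p of 0.05 over all probes. Examples that passed were the second probes of Medag, Herpud1, Ddit3 and Ndrg1, at 1.10, 0.67, 0.86 and 0.39. Probes of a gene can read different transcripts, and levels of different probes are not comparable.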

How the data were processed

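Total RNA was extracted with Trizol and converted to biotinylated cRNA, per the labels' protocols. Per the file headers, the deposited non-normalized matrix held an average intensity for 25697 probes on a linear scale, and a detection p-value for each. GenomeStudio is named in the submitters' processing notes, with no version. Normalized intensity deposited by the authors in another table served as an alternative. Depth of counting does not apply to arrays, and precision is limited by the number of arrays.

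The neqc steps of limma were run: normexp background correction based on the detection p-values, an offset of 16, quantile normalization between arrays, and log2. A filter kept the 11109 probes that 3 or more of the 15 arrays detected (detection p under 0.01). The platform annotation gave 1 symbol for 23978 probes, more than 1 for 0 and no symbol for 1719. A match in the RefSeq gene table was found for 23962 probes, and it changed 0 symbols. The brightest probe per symbol, by its mean level over the 15 arrays, was used, giving 7576 named genes and 652 unnamed probes. One mean per group was fitted over the 15 arrays in R 4.3.3 with limma version 3.58.1 (10 residual and 16.07 prior degrees of freedom, mean-variance trend). P-values are two-sided and adjusted by the Benjamini-Hochberg method over 8228 genes. A fold is 2 raised to the log2 difference. Tables and figures used Python 3.11.15 with pandas 2.3.3 and matplotlib 3.10.9. Columns were matched to samples by name, and 0 belonged to no sample.

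Genes named were Tm4sf1, up to 12 called genes each way with the largest differences and no overlap between arrays, and in each list up to 4 called members or the member farthest apart. Unnamed probes, predicted genes, Riken clones and pseudogenes were skipped. A few list members outside that rule are given as uncalled examples, chosen after their values were seen. Cd14, a called leukocyte marker, is also given outside that rule. It is not among the 54 called genes that were followed through the alternatives. The members and lists were chosen with earlier results of these data known. Alternatives were other background corrections, normalizations, filters, probe rules, arrays in the fit, variance models, leaving out single hairpin arrays, and blocking on the replicate number. Since the files name no genome build, coordinates are given only for the promoter windows, from RefSeq on GRCm38.p6.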

Additional observations from a re-analysis of the deposited data

How the results depend on the processing

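With 3 arrays a group, precision was limited, and dim probes such as Actg2 and Ly6e had only a bound on an undetected side. The count of 153 called genes was 101 with no detection filter, 84 without the variance trend and 43 with the dimmest array of each hairpin group left out, an alternative chosen after seeing the data. In these alternatives more genes were tested, the prior changed, or fewer arrays entered. It was 80 to 161 with any 1 array left out. Median scaling of all probes gave 2 calls, Acta2 and Actg2, so that 0% of calls were higher with hairpin 1 beside 67.3% in the reported fit. The median difference of all genes was then -0.07, and the cause was not tested. Median scaling over the kept probes, chosen after seeing the data, gave 131 calls, 71% of them higher with hairpin 1. With the number of detected probes of an array as a covariate, also chosen afterwards, the count was 162. The other alternatives gave 106 to 161. With the replicate number as a block the count was 140. Same-numbered arrays of the hairpins did not deviate together (r = -0.0218, 0.00272 and 0.00134), so the numbers are not taken to pair the arrays. Of 54 called named genes, Acta2 passed in all 24 alternatives and Actg2 in the 23 that tested it, since the filter that asks for detection on every hairpin array removes it. A further 15 missed only under median scaling. Col18a1 reversed to 0.01159 when its probes were averaged. Tm4sf1 was not called in any of the 24, at 0.05 to 0.60. The column names gave no slide, so slide as a block was not run.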

Other observations

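Some of the largest differences were in dim genes that are members of none of the gene lists above. The lists are selections, so this does not place genes such as Ero1b and Vangl2 outside the pathways that the lists stand for. Each of these calls was lost when 1 array was left out. Kcnk6, a potassium channel gene, read 6.05, 5.77 and 5.46 with hairpin 1, 6.51, 6.63 and 6.73 with hairpin 5, and 6.59, 6.68 and 6.33 with scramble (difference -0.86, limma adjusted p = 0.00761), and was -0.71 without hairpin 1 replicate 3 (adjusted p = 0.0691). The scramble arrays lay with hairpin 5. Lrp11, a lipoprotein receptor family gene, read 6.10, 5.05 and 6.17 with hairpin 1 and 6.53, 6.56 and 6.71 with hairpin 5 (-0.83, adjusted p = 0.016), and was detected on 2 of 3 hairpin 1 arrays. Hairpin 1 replicate 2 stood apart there, and the difference was -0.47 without it (adjusted p = 0.124). Vangl2, a planar cell polarity gene detected on 2 of 3 hairpin 1 arrays (-0.74, adjusted p = 0.0201), was -0.57 without hairpin 1 replicate 2, and was also lost without hairpin 1 replicate 3, hairpin 5 replicate 1 or hairpin 5 replicate 3. The kinase gene Stk25 (-0.60, adjusted p = 0.0262) was -0.48 without hairpin 5 replicate 1, and was also lost without any 1 of the hairpin 1 arrays. Nkapd1 (-0.63, adjusted p = 0.0402) was -0.46 without hairpin 1 replicate 2, and passed only without hairpin 1 replicate 3.

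On the hairpin 1 side, Rapsn, the gene of the receptor-clustering protein rapsyn, read 7.07, 6.61 and 6.89 with hairpin 1 and 5.19, 6.27 and 6.39 with hairpin 5 (0.90, adjusted p = 0.0292). Its hairpin 5 replicate 1 was far below its fellows, and without it the difference was 0.52 (adjusted p = 0.238). The call was also lost without hairpin 1 replicate 1 or 3, at 0.79 and 0.88. Ccn5, a matricellular protein gene, differed by 0.86 (adjusted p = 0.0114), and by 0.73 without hairpin 5 replicate 1 (adjusted p = 0.0792) or 0.78 without hairpin 1 replicate 2 (adjusted p = 0.0681). Ero1b, an oxidase gene of the endoplasmic reticulum, read 6.29, 6.56 and 6.27 with hairpin 1 and 5.05, 5.60 and 6.10 with hairpin 5 (0.79, adjusted p = 0.0178). It was 0.53 without hairpin 5 replicate 1 (adjusted p = 0.16), 0.70 without hairpin 1 replicate 2 and 0.80 without hairpin 5 replicate 2, and was not called in any of these fits. Of these 3 genes, each was detected on 2 of 3 hairpin 5 arrays.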
